A study of Mus musculus with 18 samples.

Results

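The regions described here were accessible in mouse haematopoietic stem cells (HSC) that lacked Kmt2c and in wild-type HSC that had been through repeated 5-fluorouracil, and were found in neither control list of HSC. They were chosen from lists of accessible regions made by ATAC-seq, which marks open DNA with the Tn5 transposase. Overlapping rows of each list were merged into regions. A region of the 5-fluorouracil list was taken where it overlapped a knockout HSC region by at least 1 bp and overlapped no region of the vehicle list or of the untreated wild-type HSC list. This left 225 of 71363 regions of the 5-fluorouracil list, 0.315%, called the shared regions below. Presence in these 4 HSC lists chose them, so it is given as a description and supports nothing.

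The knockout HSC came from Kmt2c f/f; Vav-Cre mice at 8 weeks of age, in which Cre is driven by the Vav promoter in blood cells, and the untreated wild-type HSC from mice of the same age. The 5-fluorouracil HSC were wild type, from mice at 16 weeks that had received 3 injections of the drug 3 weeks apart. The dose is given as 150 mg/kg. The vehicle HSC were from wild-type mice of 16 weeks given PBS on the same schedule. Cells labelled HPC, the more mature progenitors, were profiled at 8 weeks from wild-type mice and from Kmt2c f/f; Vav-Cre mice. Each 8-week HSC group and the knockout HPC group had 2 samples, each other group had 4, and all samples of a group shared 1 list of regions. Replicates were therefore not compared, no test across samples was made, and intervals are 95% Wilson intervals over regions that cover counting error only. The labels do not say whether the wild-type mice carried Cre or floxed alleles.

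Kmt2c, also called MLL3, is a histone H3 lysine 4 methyltransferase that acts mainly at enhancers, the distal elements from which transcription factors raise the output of genes. Adult HSC are mostly quiescent and divide rarely, whereas progenitors divide often. 5-Fluorouracil kills dividing cells, and the loss of progenitors drives surviving HSC to divide before they return to rest. The series title asks about Kmt2c mutations, stem cell activation and chemotherapy, and the shared regions are where both conditions can be set side by side.

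List lengths ran from 40073 regions (wild-type HSC) to 80100 (vehicle HSC), and the depth behind them is unknown. The 16-week lists had 2.04 and 2.05 rows per region and the 8-week lists 1.33 to 1.42, so age, treatment schedule and the making of the list cannot be told apart between them. All 7 HSC marker genes examined had an accessible region within 1 kb of a gene end in the 5-fluorouracil list and 6 in the knockout HSC list, where Slamf1 had none. In the 5-fluorouracil list 17 of 38 markers of other blood and stromal cells had one. Of the same 38, vehicle HSC had 18, knockout HSC 12 and wild-type HSC 11. By type, the 17 after 5-fluorouracil were 4 of 7 for T and NK cells and 4 of 6 for mature B cells. Mast cells, basophils and eosinophils had 3 of 6 and neutrophils 2 of 6. Macrophages and monocytes had 2 of 7, and stroma and endothelium 2 of 6. The part of other cells in the shared regions was not tested.

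Few of the shared regions lay at a promoter, and those that did are shown as sequence because they tie a region to a single start site. Of 225, 4 overlapped a RefSeq promoter window, which runs from 250 bases before to 50 after a start site, or 1.78% (0.693 to 4.48), against 16.2% of all 5-fluorouracil regions and 2.28% (1.85 to 2.82) of those that 5-fluorouracil HSC had alone among the HSC lists. The 4 windows belonged to Gm35621, a noncoding RNA gene, Pak6, a p21-activated kinase, Plekha6, a pleckstrin homology domain protein, and Fbxw7, the substrate receptor of a ubiquitin ligase that acts on Myc and cyclin E. The Pak6 and Plekha6 regions lay inside the gene body, 13744 and 57141 bp from the nearest gene end. Their start sites are therefore internal to the annotated gene. The bases before the start site that lay inside the region are given on GRCm38.p6, the build of the files, on the + strand. Capitals mark matches on either strand to any of 9 motifs searched: AP-1 TGANTCA, ETS AGGAAG, RUNX TGTGGT, the GATA factor motif AGATAA, E-box CAGNTG, C/EBP TTNCNNAA, the CTCF core AGGGGGC, NF-kB GGGNNTTCC and the IRF element, in which 2 GAAA runs stand 2 bases apart.
Gm35621, chr6:8623057-8623306: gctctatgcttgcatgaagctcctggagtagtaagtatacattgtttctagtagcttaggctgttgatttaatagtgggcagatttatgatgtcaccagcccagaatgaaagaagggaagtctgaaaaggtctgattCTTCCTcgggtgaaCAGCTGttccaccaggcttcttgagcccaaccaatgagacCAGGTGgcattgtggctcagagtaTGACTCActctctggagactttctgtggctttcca
Pak6, chr2:118676996-118677245: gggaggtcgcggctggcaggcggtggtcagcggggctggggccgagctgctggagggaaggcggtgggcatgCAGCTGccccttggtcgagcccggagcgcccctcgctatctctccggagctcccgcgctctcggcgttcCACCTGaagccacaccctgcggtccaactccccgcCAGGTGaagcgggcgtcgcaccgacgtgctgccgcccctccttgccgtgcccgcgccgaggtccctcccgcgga
Plekha6, chr1:133246046-133246096: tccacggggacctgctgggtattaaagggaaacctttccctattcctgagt

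The Gm35621 stretch held 1 AP-1 match, 1 ETS match and 2 E-box matches, and its G+C content was 46.4%. The same 250 bases held an AP-1 match in 6.75%, an ETS match in 29.5% and an E-box match in 44.8% of 32851 RefSeq promoters. The Pak6 stretch was richer in G+C, at 74.4%, and held 3 E-box matches and no other motif of the 9. The 51 bases of Plekha6 held none. At Fbxw7 the region, 84815568 to 84815757 on chromosome 3, covered mostly bases after the start site, which are not printed. No genome sequence was used here, so the other 221 shared regions are given by position only.

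The shared regions were weak members of both lists. Each row carries a fold enrichment at its summit over the local background of the same list, as the authors' peak caller gave it, and the highest value was taken for each region. In the 5-fluorouracil list the 225 had a median fold enrichment of 5.00, from 1.86 to 15.1, against 10.4 for all regions of that list. In the knockout HSC list the median was 9.34, from 3.41 to 23.1, against 15.1. The median percentile was 13.8 in the first list and 16.5 in the second, and 133 of 225 lay in the lowest 25% of both. Regions of 5-fluorouracil HSC alone ranked low too, at a median percentile of 10.9. With 200 bp windows around summits in place of regions, the median percentile of the shared windows was 30.3 in the 5-fluorouracil list and 23.5 in the knockout HSC list. Of the 225, 4 passed the median of the 5-fluorouracil list and 13 that of the knockout HSC list, and 1 region passed both.

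The signals of both lists sat at nearly the same place. The summits were a median of 11 bp apart, and 218 of 225 pairs lay within 100 bp, 96.9% (93.7 to 98.5). Regions that these lists had in common with vehicle HSC but not with wild-type HSC were alike in this, with a median of 12 bp over 9910 regions. The closest call for the 1 bp rule was a region within Mrpl13 that shared 114 bp with a knockout region, while the nearest 5-fluorouracil region left out, near Nrep, was 70 bp from one. In the other direction, the shared region closest to a vehicle region was 99 bp away, within Bcor. The median distance to a vehicle region was 5036 bp, with 35 regions within 1 kb of one and 68 more than 10 kb away.

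**Figure D1:**
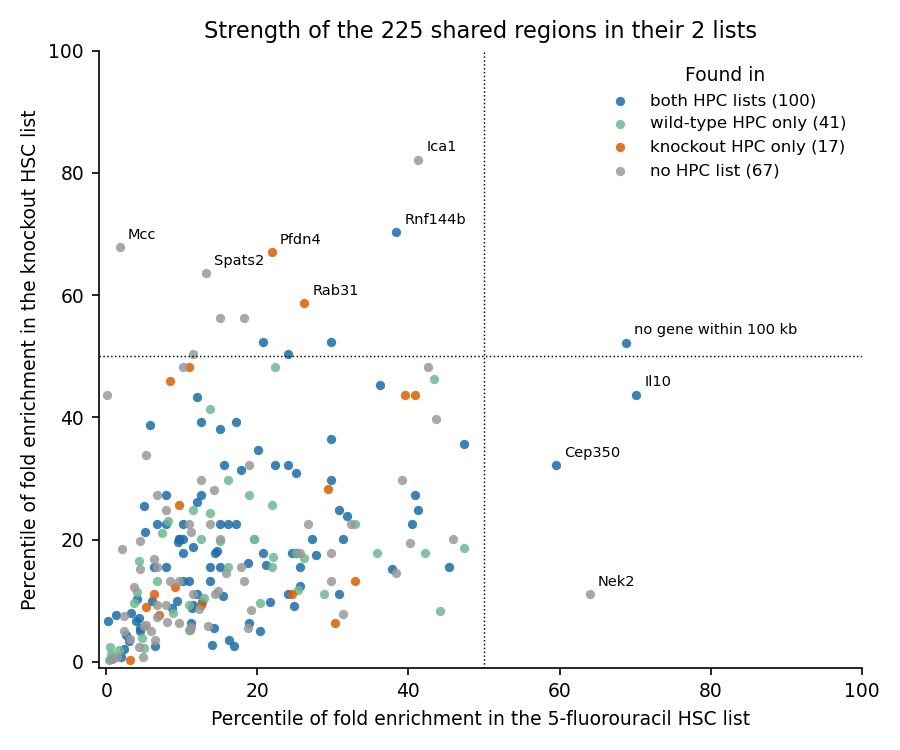
Percentile of fold enrichment within the 5-fluorouracil HSC list (x axis) and within the knockout HSC list (y axis); each point is 1 of the 225 shared regions, coloured by the HPC lists that hold it, and dotted lines mark each list's median. Most points lie in the lower left, with 133 regions in the lowest 25% of both lists and 1 above both medians.

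By the mean of both percentiles, the strongest shared region was the one over the Gm35621 start site, 8623034 to 8623433 on chromosome 6, 7094 bp from Ica1, which encodes a protein of secretory vesicle trafficking. Its fold enrichment was 23.1 in knockout HSC and 8.87 after 5-fluorouracil, and it was in no HPC list. Next was a region at 118404318 to 118404863 on chromosome 5 with no protein-coding gene within 100 kb. It had 14.8 after 5-fluorouracil and 15.5 in knockout HSC, and 19.6 and 19.1 in wild-type and knockout HPC. It was the region above the median of both HSC lists.

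The region with the highest fold enrichment in the 5-fluorouracil list lay 13067 bp from Il10, which encodes an anti-inflammatory cytokine, at 131038037 to 131038574 on chromosome 1. Its values were 15.1 after 5-fluorouracil, 13.9 in knockout HSC, 23.8 in wild-type HPC and 21.4 in knockout HPC. A region inside Cep350, a centrosomal protein gene, at 155862849 to 155863356 on chromosome 1, was like it in being present in 4 lists, with 12.4, 11.9, 26.4 and 24.0 in the same order. It lay 49462 bp from any vehicle region. Near Rnf144b, a ubiquitin ligase gene, the values were 8.37, 19.5, 8.01 and 23.0. Fold enrichment is relative to each list, so a higher number in one list than in another shows no change.

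Other shared regions, named for fold enrichment after 5-fluorouracil or for mean percentile, were in fewer lists. Near Nek2, a mitotic kinase gene, the fold enrichment was 13.5 after 5-fluorouracil and 8.35 in knockout HSC, with no HPC region. Inside Il16, which encodes a lymphocyte-attracting cytokine, it was 9.08 and 14.7, and near Pkib, an inhibitor of protein kinase A, 9.24 and 13.2, both without an HPC region. Near Qpct, a glutaminyl cyclase gene, and near Ly6m, a Ly6 family gene, a wild-type HPC region was present and a knockout one was not. The values after 5-fluorouracil and in knockout HSC were 9.22 and 14.3 at Qpct and 9.94 and 9.69 at Ly6m. Near Pfdn4, a prefoldin subunit gene, and inside Rab31, a GTPase of vesicle transport, they were 6.01 and 18.7, and 6.58 and 16.8, with a knockout HPC region only. Some of these ranked low in 1 list. Nek2 and Ly6m were at percentiles 11.1 and 18.6 in knockout HSC, and Pfdn4 was at 21.9 after 5-fluorouracil.

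**Figure D2:**
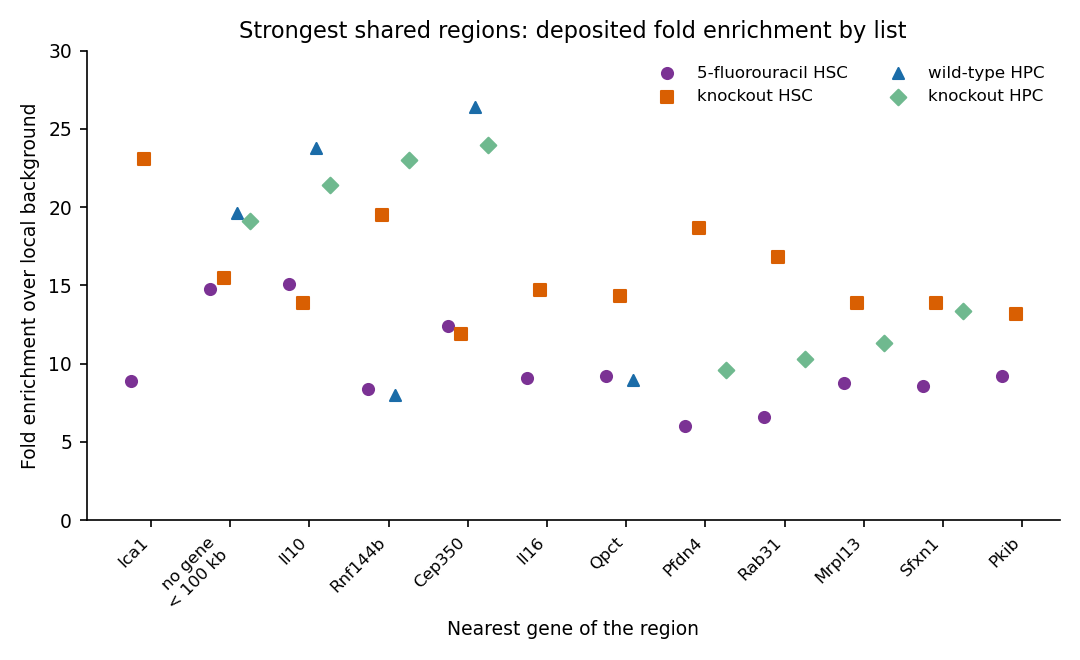
Deposited fold enrichment over local background (y axis) of the 12 shared regions with the highest mean percentile (x axis, by nearest gene) in the 5-fluorouracil HSC, knockout HSC, wild-type HPC and knockout HPC lists; a missing marker means that the list holds no overlapping region. Ica1, Il16 and Pkib have no HPC marker, and Pfdn4, Rab31, Mrpl13 and Sfxn1 have a knockout HPC marker only.

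The progenitor lists were not used to choose the regions. Of the 225 shared regions, 141 were in the wild-type HPC list, 62.7% (56.2 to 68.7), against 72.0% of all 5-fluorouracil regions, and 117 in the knockout HPC list, 52.0% (45.5 to 58.4), against 61.1%. Both HPC lists held 100 of them, neither held 67. The share was above that of regions that 5-fluorouracil HSC had alone among the HSC lists, of which 26.8% (25.4 to 28.3) of the 3682 were found in wild-type and 16.5% (15.3 to 17.7) in knockout progenitors. The intervals do not overlap, and no test across samples was possible. The wild-type HPC list is the longer of the HPC pair. With every list at the length of the shortest, the shares of 354 shared regions were 54.2% in wild-type and 56.8% in knockout HPC.

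The lookup was repeated within 1 broad range of strength, and strength inside that range was not matched further. Over all strengths, the median percentile by −log10 p was 11.2 for the shared regions and 7.11 for 5-fluorouracil alone. Within the weakest 25% of the 5-fluorouracil list by −log10 p, 61.7% (54.6 to 68.4) of 188 shared regions had a wild-type HPC region, beside 26.5% (25 to 28) of 3462 regions found after 5-fluorouracil alone and 37.6% of all regions there. Regions of 5-fluorouracil, knockout and vehicle HSC without wild type were at 54.7% (52.5 to 56.8) of 2115 in the same range of strength, an interval that overlaps that of the shared regions. The 49 regions that 5-fluorouracil HSC shared with wild-type in place of knockout HSC had a wild-type HPC region in 67.3% (53.4 to 78.8), over all strengths. That interval contains the value of the shared regions. All HPC and both untreated HSC lists are from 8 weeks, so the share in HPC and membership of an 8-week list cannot be told apart.

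The same lookup was made for the vehicle side. Of 1199 regions shared by vehicle and knockout HSC and absent from 5-fluorouracil and wild-type HSC, 46.5% (43.6 to 49.3) were in wild-type HPC and 34.2% (31.6 to 36.9) in knockout HPC, both below the intervals of the 225. Their own-list fold enrichment was higher in rank, with a median percentile of 30.2 against 13.8. Counted from the knockout list, 12589 of 48620 regions, 25.9%, were absent from wild-type HSC. Of these 83.5% were in both 16-week lists, 9.74% in vehicle only, 1.80% (1.58 to 2.04) or 226 in 5-fluorouracil only, and 4.95% in neither. In wild-type HPC were 63.3% (56.8 to 69.3) of the 226, 45.4% (42.7 to 48.2) of those in vehicle only, 48.8% (44.9 to 52.7) of those in neither and 69.7% (68.9 to 70.6) of those in both. With the weakest 25% of the 5-fluorouracil and knockout HSC lists removed, 8 shared regions were left and the shares were 62.5% for them and 61.6% for the vehicle class.

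**Figure D3:**
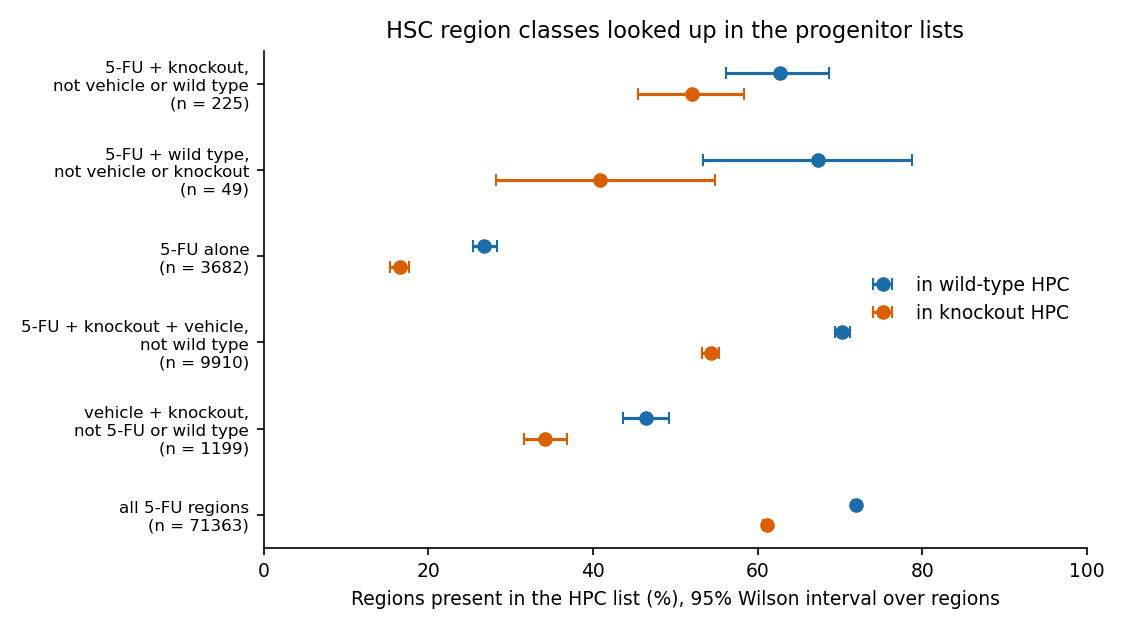
Share of regions (x axis, %) present in the wild-type and knockout HPC lists for 6 classes of HSC regions (y axis, with their number); bars are 95% Wilson intervals over regions. The shared regions, at 62.7% and 52.0%, lie above the regions of 5-fluorouracil HSC alone and above those of vehicle and knockout HSC.

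Some shared regions that were weak in HSC were among the strongest of the progenitor lists. The 6 of highest percentile in wild-type HPC, chosen after their values were seen, were all in knockout HPC as well. Near Atrnl1, an attractin-like gene, wild-type HPC had a fold enrichment of 33.2, percentile 98.5, and the value was 5.79 after 5-fluorouracil, percentile 20.1. A region at 133659780 to 133660226 on chromosome 3, whose nearest gene end was that of Tet2, a DNA demethylation enzyme, 114644 bp away, had 30.3 in wild-type HPC and 7.22 after 5-fluorouracil. Inside Fstl4 the values were 29.0 and 4.29. Inside Rptor, the scaffold subunit of the growth kinase complex mTORC1, they were 26.8 and 4.08, at percentiles 92.0 and 6.26, and the Cep350 region described above was also among the 6. Over all 141 regions found there, the median percentile in wild-type HPC was 40.8, against 32.3 for 5-fluorouracil regions alone among the HSC lists and 57.2 for all 5-fluorouracil regions.

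Of the 58 shared regions in exactly 1 HPC list, 17 were in knockout HPC, 29.3% (19.2 to 42.0). Over all 5-fluorouracil regions in exactly 1 HPC list that share was 15.9% (15.2 to 16.5). It was 17.4% (15.9 to 19.0) for regions of 5-fluorouracil, knockout and vehicle HSC without wild type and 22.1% (17.5 to 27.4) for those of vehicle and knockout HSC, an interval that overlaps that of the shared regions. Of the 13 that 5-fluorouracil and wild-type HSC shared in place of knockout, 0 were in knockout HPC alone. With every list at the length of the shortest, knockout HPC held 57.1% (44.9 to 68.6) of the 63 shared regions in exactly 1 HPC list. That setting also cut both HPC lists to the same length. The share over all 5-fluorouracil regions was not computed there, so 57.1% cannot be set against 15.9%.

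Those 17 were present in both knockout lists and after 5-fluorouracil, and in no list of untreated or vehicle-treated wild-type cells. Their fold enrichment in knockout HPC ranged from 3.80 to 17.1 with a median of 10.3, and 9 lay inside a gene body. The highest was inside Ulk4, a kinase family member, at 121023584 to 121023864 on chromosome 9, with 17.1 in knockout HPC, 14.3 in knockout HSC and 4.36 after 5-fluorouracil. Near Adamts2, a procollagen protease gene, the values were 15.5, 14.7 and 4.65. Near Sfxn1, which encodes a mitochondrial serine transporter, they were 13.4, 13.9 and 8.58, and inside Mrpl13, a mitochondrial ribosomal protein gene, 11.3, 13.9 and 8.79. Others lay in or near Mier3, Padi1, Cyp7b1, Rab31, Cgnl1, Prkag2, a subunit of the energy sensor AMPK, Pfdn4, Ints7, Frmd5, Bcor and St3gal1, and 2 had no gene within 100 kb.

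How the regions absent from vehicle divide between the 8-week HSC lists rests on the same lists that the rule used, so it is given as a description. Of 71363 regions after 5-fluorouracil, 4002 or 5.61% overlapped no vehicle region. Among these, 225 were in knockout but not wild-type HSC, 49 in wild-type but not knockout HSC, 46 in both and 3682 in neither. The knockout list thus held 82.1% of the 274 in exactly 1 of these lists. For vehicle regions absent after 5-fluorouracil it held 1199 of 1469, 81.6%, and for regions in both 16-week lists 75.2% of 13173. The knockout list is the longer of the 8-week HSC pair. With every list at the length of the shortest, the first share was 43.9% and the second 57.4%, so the first turned from mostly knockout to mostly wild type.

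The shared regions were mostly distal. Within 1 kb of either end of a protein-coding gene lay 14 of 225, 6.22% (3.74 to 10.2), against 21.0% of all 5-fluorouracil regions and 6.44% (5.69 to 7.28) of those found after 5-fluorouracil alone. With 200 bp windows around summits in place of regions the share was 20.2%, and with every list at the length of the shortest 10.5%. The shares of all 5-fluorouracil regions and of 5-fluorouracil alone were not computed under these settings. The 20.2% and 10.5% therefore cannot be set against 21.0% or 6.44%. The regions over the start sites of Gm35621, Pak6 and Plekha6 are not among the 14, because no end of a protein-coding gene lies within 1 kb of them. The median distance to a gene end was 23911 bp, against 12283 bp over all 5-fluorouracil regions. A gene body was touched by 131, 58.2% (51.7 to 64.5), against 62.5% of all, and 28 had no gene within 100 kb. Exons and introns were not told apart here. Shared regions were also narrow, with a median width of 352 bp against 640 bp for all and 336 bp for those of 5-fluorouracil alone. By chromosome, 22 lay on chromosome 11, 9.78% against 7.21% of all 5-fluorouracil regions, 20 on chromosome 2, 8.89% against 7.86%, and 4 on X, 1.78% against 2.17%.

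**Figure D4:**
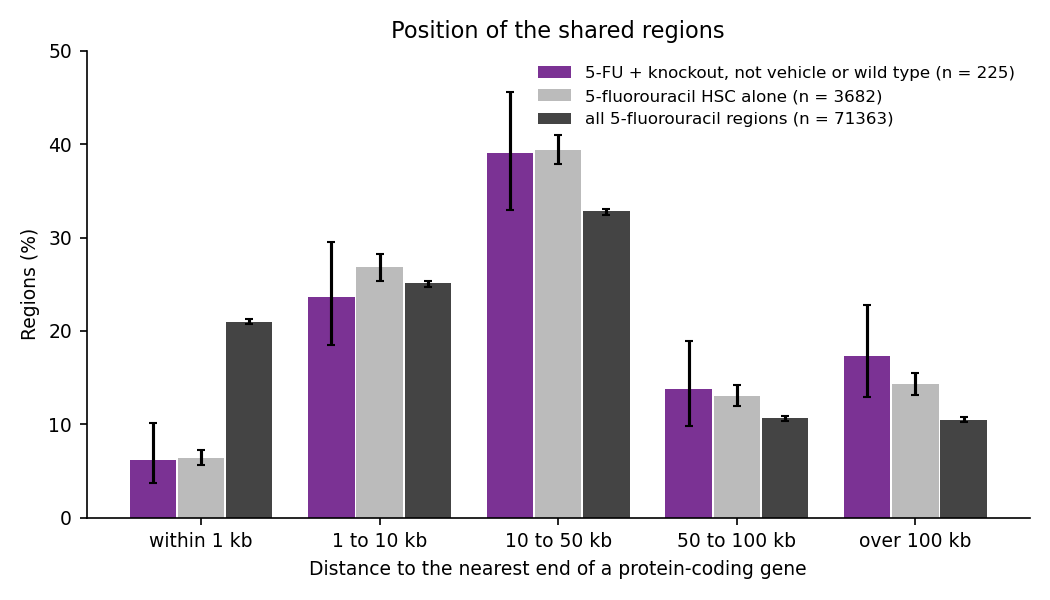
Share of regions (y axis, %) by distance to the nearest end of a protein-coding gene (x axis) for the 225 shared regions, the regions of 5-fluorouracil HSC alone among the HSC lists and all 5-fluorouracil regions; bars carry 95% Wilson intervals over regions. Within 1 kb lie 6.22% of the shared regions and 21.0% of all 5-fluorouracil regions.

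Of the 14 at a gene end, the strongest was 846 bp from an end of Kazn, a cytoskeletal linker gene, with a fold enrichment of 9.94 after 5-fluorouracil, 12.5 in knockout HSC and 10.9 and 10.5 in wild-type and knockout HPC. At Slc16a14, of the monocarboxylate transporter family, the HPC values were the higher ones, with 5.91, 9.15, 19.7 and 20.9 in the same order. At Mymk, a muscle cell fusion gene, a knockout HPC region was missing, with 4.90, 8.20 and 5.62. Ctso, a cathepsin gene, with 4.69 and 10.1, and Chrdl1, a BMP antagonist, with 4.50 and 7.16, had no HPC region.

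The shared regions lay mostly at separate loci. Those with a gene within 100 kb lay nearest to 192 genes, of which 5 had 2 regions and 0 had 3. Of the 225, 4 lay within 50 kb of another. No like count was made for other regions of the 5-fluorouracil list. Cdh1, the gene of the adhesion protein E-cadherin, had 2 with fold enrichments after 5-fluorouracil of 4.33 and 6.51, of which the first was in wild-type HPC. Ankrd11, a chromatin cofactor gene, had 5.65 and 4.08, and Pdss2, of coenzyme Q synthesis, 3.14 and 4.50, none in HPC. Bcor, a corepressor of BCL6, had 4.65 and 4.17, of which the second was in knockout HPC only. The 2 at Mrpl13, with 8.79 and 1.86, overlapped the same knockout HSC region and count as 1 site there.

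Of 11 gene lists, 4 had a shared region nearest to one of their genes, with 1 region each. Over all lists 4 of 268 genes matched had one, and 1.78% of the shared regions lay nearest to a listed gene, against 2.70% of all 5-fluorouracil regions. Nfkb1, an NF-kB subunit gene of the inflammatory signalling list, had a region of fold enrichment 4.15 after 5-fluorouracil and 9.15 in knockout HSC, 1 of 30 genes. Bcl2, the survival gene of the p53 and apoptosis list, had 4.58 and 14.7, 1 of 25. Rptor was the 1 of 22 genes of mTOR, AKT and metabolism, and of these 4 regions it alone was in HPC. None of the genes for lymphoid, myeloid or erythroid and megakaryocyte cells, AP-1 and immediate-early response, interferon and antigen presentation, cell cycle or chromatin regulation had one, in lists of 20 to 27 genes. Of these 7 lists, the lymphoid one was nearest to the most 5-fluorouracil regions, 0.343% of all.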

How the data were processed

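ATAC-seq peak lists of 6 groups were analysed, 1 list per group. Every sample of a group points to that list; how replicates were combined was not stated, and read depth is unknown. Bowtie2, MACS2 and mm10 are named per the submitters' processing notes; their versions and filters are not stated there. Per row, the authors deposited a fold enrichment (a ratio over local background), a −log10 p, a display score (not used) and a summit offset. Rows were merged where they overlapped, with the highest fold enrichment and −log10 p kept and the summit of the row of highest −log10 p (Python 3.11.15, pandas 2.3.3, scipy 1.17.1). Interval code was tested on simulated data. Percentiles order regions within a list. Genes were the nearest of 21883 RefSeq protein-coding gene bodies of GRCm38.p6 within 100 kb; the gene table has no strand, so both ends within 1 kb stood for the start.

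Named regions were the 12 of highest mean percentile in both lists, the 6 of highest fold enrichment after 5-fluorouracil, genes with 2 or more regions, the 6 strongest at a gene end and up to 3 genes per list. The regions, lists and rules were chosen with earlier results of these data known. The planned motif search over all regions needed a genome and was limited to RefSeq promoters. Of 270 listed genes 268 matched. Some regions that these rules name are not reported here.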

Additional observations from a re-analysis of the deposited data

How the results depend on the processing

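No paired analysis was possible because each group has a single pooled list, and for the same reason no replicate could be left out. Of 70 values under other settings, 32 stayed within the 95% interval of the main value (counts: within 1.5 times). Requiring 50% overlap left 224 shared regions, and nothing within 1 kb in the controls left 190, with the share at a gene end at 3.68%. Settings added after seeing the data are the comparison classes, the share of knockout HPC and the strengths. The cause of the moves was not tested.

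With 200 bp windows there were 554 shared regions, 48.4% in wild-type and 38.4% in knockout HPC and 20.2% at a gene end, at median percentiles of 30.3 and 23.5. The knockout shares were 65.9% after 5-fluorouracil and 76.1% in vehicle, and the wild-type HPC shares 14.5% for 5-fluorouracil alone and 41.1% for vehicle and knockout HSC.

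Without the weakest 25% of every list there were 57, 61.4% of them in knockout HPC, at percentiles 17.9 and 26.4, with knockout shares of 96.6% and 88.4%. With those removed from the 5-fluorouracil and knockout HSC lists only there were 8, with 0% at a gene end, percentiles 22.6 and 29.6, knockout shares of 47.1% and 34.5%, HPC shares of 36.3% for 5-fluorouracil alone and 61.6% for vehicle and knockout HSC, and 0% knockout among the 1 region in exactly 1 HPC list.

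With every list at 40073 regions there were 354, 54.2% in wild-type HPC, 56.8% in knockout HPC and 10.5% at a gene end, at percentiles 24.1 and 24.2. Knockout shares were 43.9% and 57.4%, HPC shares 24.1% and 35.1%, and knockout HPC held 57.1% of 63 regions in exactly 1 HPC list. For the last value no share over all 5-fluorouracil regions was computed at that length. Gene ends within 250 bp gave 1.78% and within 5 kb 22.7%. The share at a gene end over all 5-fluorouracil regions was not computed under any other setting. Under all 6 list settings the share of shared regions in wild-type HPC exceeded that of 5-fluorouracil alone. With 8 shared regions left, their 62.5% (30.6 to 86.3) had an interval that held the 36.3% of 5-fluorouracil alone. By rule the shared regions lie in an 8-week HSC list and the other class does not. The higher share and membership of an 8-week list therefore cannot be told apart under any setting.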
